A study of Mus musculus with 19 samples.

Results

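The non-muscle actin cytoskeleton and its focal adhesions were followed, at the level of RNA, through the differentiation of mouse muscle cells in culture. The genes were taken by symbol from a list of 34 names, all of which matched, out of 35598 genes with estimated counts. They comprise 3 actins, 4 filament cross-linkers, 4 chains of non-muscle myosin II, 6 filament-binding proteins shared with smooth muscle, 4 proteins that bind monomers or sever or nucleate filaments, 8 focal adhesion adaptors or kinases, 3 membrane linkers and scaffolds, vimentin (Vim) and the transcription factor Srf.

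Messenger RNA was measured in 19 libraries of primary myoblasts from mouse hind-limb muscle. Myoblasts are muscle precursor cells, which stop dividing, differentiate and fuse into multinucleate myotubes. Proliferating myoblasts were sampled at 24 h in growth medium, differentiated myotubes at 48 h and fused myotubes at 72 h, so stage and time in culture cannot be told apart. The wild-type (WT) groups held 3, 3 and 4 libraries and the Glud1-deficient groups (Glud1KO, here KO-labelled) held 3, 2 and 4. Neither strain, age, sex, Cre driver nor the kind of Glud1 allele is named in the labels, and replicates are called biological or experimental without stating whether they are separate animals or cultures. The p-values therefore measure the spread between these libraries, which may be technical. Libraries held 16168131 to 30742634 estimated counts.

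Glud1 encodes a mitochondrial glutamate dehydrogenase, and its level was examined as a check of the labels. It lay at 184 to 192 CPM (a count scaled to a common library total) in WT and 185 to 190.0 CPM in KO-labelled myoblasts, and it was called at no stage (-0.02, -0.09 and -0.02 on the log2 scale). Total Glud1 RNA thus did not separate the labels, and the deposited file names mark WT and KO-labelled libraries alike as KO, with an additional letter for the KO-labelled ones. Directions below are those of the labels. The 7 myogenic markers (Pax7, Myf5, Myod1, Myog, Des, Mymk and Ckm) summed to 1711 to 1868 CPM in WT myoblasts and 8365 to 9181 CPM in WT fused myotubes. All 6 endothelial markers were below 1 CPM in every library, as was Myocd, an SRF cofactor of cardiac and smooth muscle. The 10 smooth muscle and pericyte markers, of which Myocd is one, summed to between 101.6 and 468 CPM.

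In a dividing, crawling cell, β- and γ-actin polymerise into cortical filaments and stress fibres, which non-muscle myosin II contracts and which end at focal adhesions, the integrin-based contacts with the substrate. Free actin monomers hold the coactivators MRTF-A and MRTF-B in the cytoplasm. When monomers are used up in filaments, MRTFs enter the nucleus and bind SRF at CArG boxes, and many genes of the actin cytoskeleton, including actins and Srf itself, are known SRF targets. During myogenesis much of this non-muscle apparatus is replaced by striated isoforms assembled in sarcomeres.

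The CArG box was searched in the members' promoters because it is the sequence through which SRF binds. RefSeq promoters of GRCm38.p6, from 250 bases before to 50 bases after each start, were at hand for 29 of the 34 members, and Actb, Diaph1, Ptk2, Pxn and Tagln had none in the table. Boxes on either strand were counted where they matched CCWWWWWWGG exactly, with W for A or T. Boxes that depart from this pattern or lie outside these promoters were not counted. The box was found in 5 of the 29 members (17.2%) and in 488 of 27025 genes with a promoter (1.81%). By promoter, the shares were 5 of 32 (15.6%) and 535 of 32851 (1.63%). The windows below hold the boxes in capitals with up to 30 bases of flank, and lie 5′ to 3′ on the strand of the gene, upstream of the start. The window of Myl9, a myosin light chain, is chr2:156775273-156775342 (plus strand). That of Cnn2, a calponin, is chr10:79988514-79988583 (plus strand), and that of Actg1, γ-actin, is chr11:120348546-120348615 (minus strand). For Vcl, vinculin, it is chr14:20929148-20929210 (plus strand), and for Srf, with 2 boxes, chr17:46556185-46556274 (minus strand).
Myl9: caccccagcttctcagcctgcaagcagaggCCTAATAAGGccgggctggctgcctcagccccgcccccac
Cnn2: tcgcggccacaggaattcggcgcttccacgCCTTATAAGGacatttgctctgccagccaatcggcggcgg
Actg1: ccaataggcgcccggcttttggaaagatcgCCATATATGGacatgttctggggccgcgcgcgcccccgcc
Vcl: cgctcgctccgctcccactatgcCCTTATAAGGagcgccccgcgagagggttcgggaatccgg
Srf: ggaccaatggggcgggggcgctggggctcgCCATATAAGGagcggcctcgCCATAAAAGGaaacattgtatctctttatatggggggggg
Vcl and Cnn2 hold the identical box in different flanks. The 5 genes did not share a course: from WT myoblasts to WT fused myotubes Cnn2, Actg1 and Myl9 fell by 5.40, 5.57 and 4.18 on the log2 scale, Srf fell by 0.78 and Vcl rose by 0.61 (edgeR quasi-likelihood test, adjusted p at most 1.69e-12).

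A change between groups was called at an adjusted p under 0.05 (quasi-likelihood test of edgeR, adjusted by Benjamini and Hochberg's method over 15123 genes). Calponin 1 (Cnn1), a smooth-muscle calponin, was too low to be tested, at no more than 0.247 CPM in any library, so 33 of the 34 members were tested. In bulk RNA, fewer cells of a type and less RNA per cell cannot be told apart.

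Most of the members fell as WT cells differentiated. Per length, the 34 members made up 3.21% ± 0.066 (SD, n = 3) of all TPM (transcript abundance per length) in WT myoblasts, 1.66% ± 0.038 (SD, n = 3) in differentiated and 0.654% ± 0.019 (SD, n = 4) in fused myotubes. In the step from myoblasts to differentiated myotubes 22 members fell and 10 rose, where 85% of all genes tested were called (42.4% higher and 42.6% lower). In the step from differentiated to fused myotubes 30 fell and 2 rose, where 75.1% of all genes were called (37.4% higher and 37.7% lower). In both steps 20 members fell. The share of all genes that fell in both was not counted, so the count of 20 has no background. The median log2 fold change of the tested members was -1.10 in the first step and -1.29 in the second, beside 0.02 and -0.01 over all genes tested. From myoblasts to fused myotubes 26 members fell and 5 rose (85.5% of all genes called, 42.2% higher and 43.4% lower). The 5 that rose were Palld, Diaph1, Vcl, Myl12a and Cnn3. In the first step the summed markers of dividing cells went from between 1233 and 1281 CPM to between 33.8 and 42.1 CPM in WT, and those of fibroblasts from between 287 and 294 CPM to between 24.3 and 27.1 CPM. Of the 8 fibroblast markers 5 (Dcn, Lum, Col1a1, Thy1 and Dpt) were below 1 CPM in every WT myoblast library. The fibroblast sum there thus came almost wholly from Pdgfra, Col3a1 and Ly6a. The part of dividing or other cells in the members' fall was not tested.

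In KO-labelled cells, too, most members fell. They held 3.28% ± 0.058 (SD, n = 3) of TPM in myoblasts, 1.26% ± 0.020 (SD, n = 2) in differentiated and 0.704% ± 0.0028 (SD, n = 4) in fused myotubes. In the first step 23 members fell and 8 rose (83.7% of all genes called, 41.3% higher and 42.5% lower), in the second 28 fell and 4 rose (70.2%, 35.8% higher and 34.4% lower), and over the whole course 27 fell and 5 rose (87.2%, 42.7% higher and 44.5% lower). The median log2 fold change was -1.56 in the first step and -0.95 in the second. Both steps share the KO-labelled differentiated libraries, of which there were 2.

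**Figure D1:**
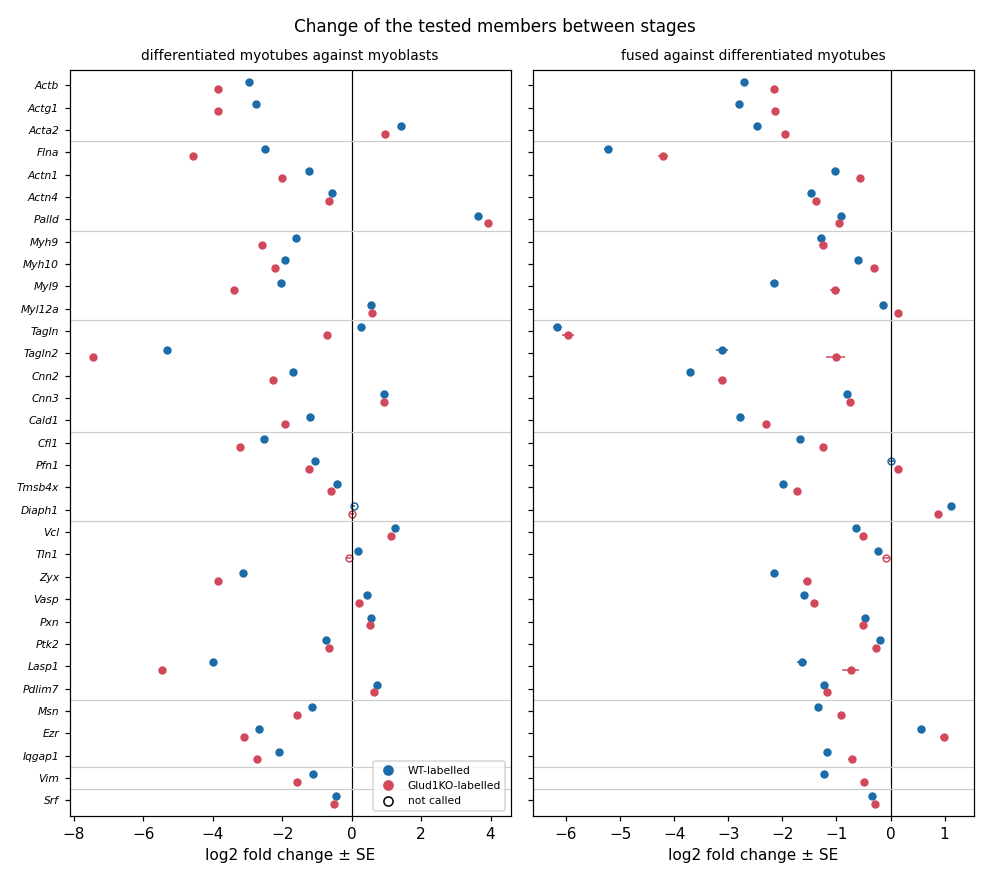
Log2 fold change with its standard error of the 33 tested members, grouped by role, in differentiated myotubes against myoblasts (left) and fused against differentiated myotubes (right). Blue points are WT and red points KO-labelled libraries, and open points did not pass the test. Flna, Tagln2 and Lasp1 lie farther left in red than in blue in the first step and farther right in red in the second.

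Between the labels, the members differed mainly at the differentiated stage. In KO-labelled differentiated myotubes 22 of 33 tested members were lower than in WT and none was higher, where 25.2% of all genes tested were called (11% higher and 14.1% lower). Flna, Tagln2, Lasp1, Myl9, Actg1 and Myh9 were lower by at least 2-fold, which held for 2.57% of all genes. The members' median log2 fold change was -0.43, beside -0.01 over all genes. The libraries of both labels did not overlap in 25 of the 33 tested members and in 46.5% of all genes tested. Counted at every alternative setting, 20 of the 22 calls were kept. Those of Vcl and Tln1 were lost in some, with the values given beside each gene.

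In myoblasts 3 of the 33 were called, where 11.6% of all genes were (4.86% higher and 6.69% lower): Palld was lower, and Tagln2 and Tmsb4x were higher. In fused myotubes 13 were lower and 3 were higher (Vim, Myl12a and Tmsb4x), where 13% of all genes were called (6.32% higher and 6.72% lower). Without WT replicate 3 or KO-labelled replicate 1 or 3, the count over all genes in myoblasts went from 1747 to 925, 1144 and 1067, while that of the members stayed at 3. The members' median log2 fold change was 0.01 in myoblasts and -0.06 in fused myotubes, beside 0.01 and -0.01 over all genes tested. With 1 library left out at a time, the members' median ran from -0.03 to 0.03 in myoblasts and from -0.07 to -0.04 in fused myotubes. The libraries of both labels did not overlap in 8 members in myoblasts, where 33% of all genes did not, and in 13 members in fused myotubes, where 15.8% did not. With an offset for effective transcript length, the count in fused myotubes was 9, with 6 lower. The 7 calls lost were Flna, Tagln, Cald1, Tln1, Zyx, Lasp1 and Iqgap1.

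**Figure D2:**
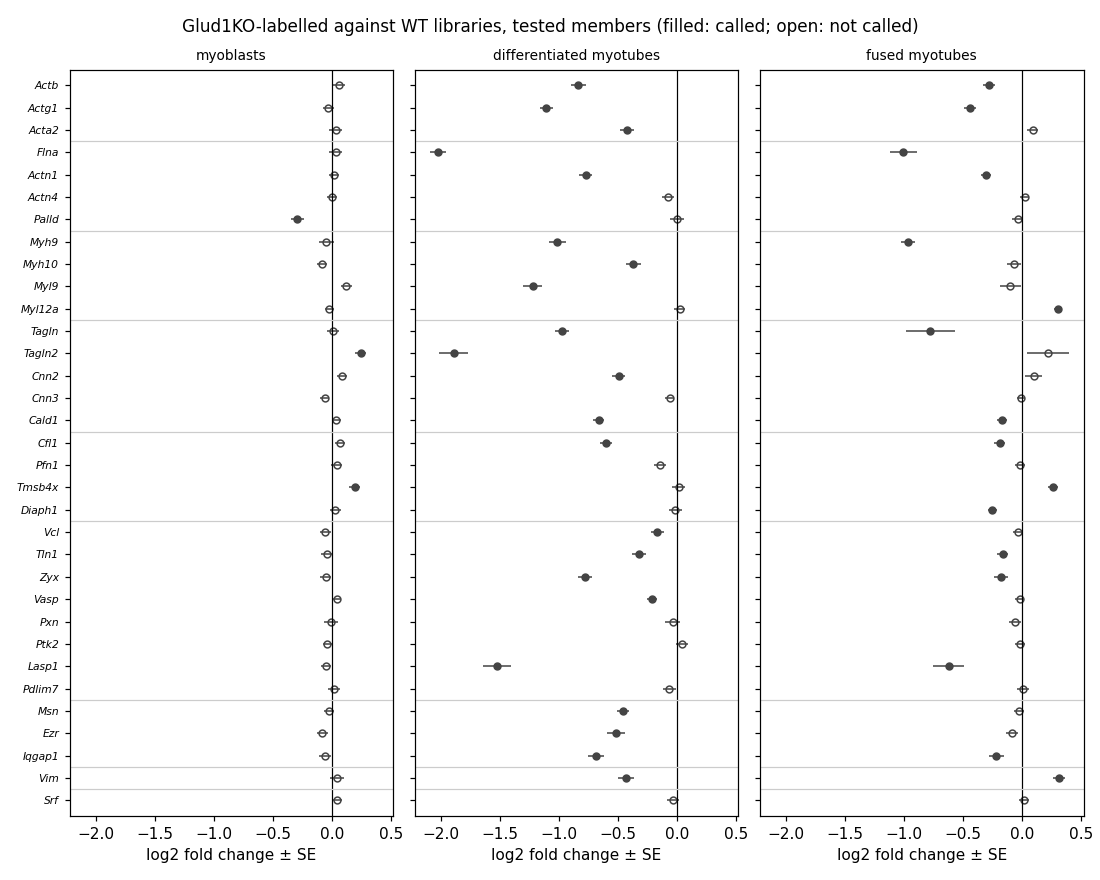
Log2 fold change with its standard error of KO-labelled against WT libraries for the 33 tested members, grouped by role, at each stage. Filled points passed the test: 3 in myoblasts, 22 in differentiated myotubes (all lower) and 16 in fused myotubes (13 lower).

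Actb and Actg1 encode the β- and γ-actin of non-muscle cells (chr5:142903115-142906754 and chr11:120345690-120348542, both on the minus strand of GRCm38). Actb lay at 4739.8, 4528 and 4836 CPM in WT and 5112, 4935 and 4649 CPM in KO-labelled myoblasts. Differentiated WT libraries held 625, 562 and 623 CPM and KO-labelled ones 317 and 359 CPM. Fused myotubes held 91.4, 88.9, 94.0 and 95.9 CPM in WT, against 71.6, 75.0, 76.9 and 81.3 CPM. All KO-labelled libraries were thus below all WT libraries at the later stages, whereas the myoblast groups overlapped. KO-labelled against WT, the log2 difference was -0.84 ± 0.061 (SE, edgeR adjusted p 8.26e-11) in differentiated and -0.28 ± 0.053 (SE, edgeR adjusted p 0.00055) in fused myotubes.

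Actg1 took the same course. It lay at 3285, 3119 and 3335 CPM in WT and 3285, 3206 and 3050.0 CPM in KO-labelled myoblasts, then at 499, 448 and 493 CPM against 213 and 232 CPM in differentiated myotubes. Fused WT libraries held 65.3, 66.9, 71.2 and 70.7 CPM, against 51.3, 51.2, 48.7 and 50.6 CPM with the KO label. The groups overlapped in myoblasts alone. The labels differed by -1.11 ± 0.056 on the log2 scale (SE, edgeR adjusted p 5.04e-14) in differentiated and -0.44 ± 0.050 (SE, edgeR adjusted p 4.63e-07) in fused myotubes.

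Acta2, the actin of smooth muscle that early muscle cells also express, rose before it fell. It lay at 1010.4, 998 and 1034 CPM in WT myoblasts, at 2732, 2567 and 2854 CPM in differentiated and at 457, 481, 499 and 528 CPM in fused myotubes. KO-labelled libraries were at 1053, 1019 and 1038 CPM, at 1914 and 2140.0 CPM, and at 539.5, 534, 519 and 495 CPM. The peak was thus lower in both KO-labelled differentiated libraries than in any WT one, and the groups overlapped before and after it. At the peak the labels differed by -0.42 ± 0.058 on the log2 scale (SE, edgeR adjusted p 3.31e-06). Reads from words that genes share can be assigned to either gene. Of the 31-base words in the main Actb transcript 30.5% also occur in other genes, most of them in Lrrc58 (22.7%), which is no actin. For Actg1 the share was 6.57% (5.9% with Actb) and for Acta2 1.3% (with Actg1).

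Among the filament cross-linkers, filamin A (Flna, chrX:74223461-74249820, minus strand), which joins actin filaments into networks and binds integrins, showed the largest difference of any member. It lay at 2076, 2202 and 2246 CPM in WT and 2256, 2224 and 2192 CPM in KO-labelled myoblasts. Differentiated WT libraries held 391, 354 and 401 CPM and KO-labelled ones 89.3 and 98.4 CPM, or 0.246 of the WT level. Fused WT libraries held 11.6, 8.56, 9.19 and 10.8 CPM, against 5.08, 5.67, 4.22 and 5.59 CPM with the KO label. The groups overlapped in myoblasts alone. On the log2 scale Flna differed by -2.02 ± 0.071 (SE, edgeR adjusted p 3.84e-17) in differentiated and -1.01 ± 0.11 (SE, edgeR adjusted p 4.63e-07) in fused myotubes. With the effective-length offset the latter was -0.44 (edgeR adjusted p 0.316).

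Palladin (Palld, chr8:61511433-61902690, minus strand), a scaffold of stress fibres that also occurs in Z-discs, was among the members that rose. It lay at 156, 148 and 156 CPM in WT and 122, 127 and 128 CPM in KO-labelled myoblasts, with every KO-labelled library below every WT one. It rose to 1787, 2042 and 1948 CPM in WT and 1933 and 1911 CPM in KO-labelled differentiated myotubes. Fused myotubes held 982, 947, 1009.9 and 1130.5 CPM in WT, against 952, 1000.1, 991 and 1024 CPM. The groups overlapped at both later stages. Its rise from WT myoblasts to differentiated myotubes was 3.65 ± 0.060 on the log2 scale (SE, edgeR adjusted p 1.42e-27), the largest of any member, and the difference between the labels in myoblasts was -0.29 ± 0.056 (SE, edgeR adjusted p 0.000826). Of the α-actinins, which cross-link filaments in stress fibres, Actn1 was lower in KO-labelled differentiated (log2 fold change -0.77) and fused myotubes (-0.31), while Actn4 was not called at any stage (-0.07 in differentiated myotubes). With scaling by library size only, Actn4 passed the test in differentiated myotubes (-0.13, edgeR adjusted p 0.0350).

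Non-muscle myosin II pulls on actin filaments, and Myh9 (chr15:77760587-77842175, minus strand) encodes its heavy chain IIA. Myh9 lay at 1282, 1335 and 1391 CPM in WT and 1328, 1329 and 1226 CPM in KO-labelled myoblasts. It was at 427, 415 and 478 CPM against 215 and 221 CPM in differentiated myotubes and at 183, 161, 177 and 196 CPM against 93.3, 87.9, 84.3 and 103 CPM in fused myotubes. The groups were apart at both later stages in each: Myh9 differed on the log2 scale by -1.01 ± 0.074 (SE, edgeR adjusted p 6.99e-11) in differentiated and -0.97 ± 0.060 (SE, edgeR adjusted p 5.29e-12) in fused myotubes. The change of this difference between the stages was 0.05 ± 0.094 (SE, edgeR adjusted p 0.804). Myh10, the heavy chain IIB, was lower in differentiated myotubes (-0.37, or -0.23 with the length and GC trend removed, where the call was kept) and not called in fused ones (-0.07).

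The regulatory light chain Myl9 was called between the labels in differentiated myotubes and at neither of the other stages. It lay at 176, 169 and 179.8 CPM in WT and 196, 189 and 185 CPM in KO-labelled myoblasts, and at 45.9, 39.9 and 42.7 CPM against 16.3 and 20.3 CPM in differentiated myotubes. In fused myotubes WT was at 9.18, 10.7, 9.81 and 9.11 CPM and KO-labelled libraries at 9.16, 7.90, 9.41 and 9.32 CPM. Every KO-labelled library was above every WT one in myoblasts and below every WT one in differentiated myotubes, and the groups overlapped in fused myotubes. Myl9 differed by a log2 value of -1.22 ± 0.078 (SE, edgeR adjusted p 7.41e-12) in differentiated myotubes and -0.10 in fused ones, a difference of 1.12 ± 0.12 (SE, edgeR adjusted p 2.73e-07). In myoblasts it was 0.12 (edgeR adjusted p 0.0939), and passed the test with the length and GC trend removed and with only the groups compared (edgeR adjusted p 0.011 and 0.0229).

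Myl12a, another regulatory light chain, did not follow the fall. It lay at 679, 645 and 670.4 CPM in WT and 672, 648 and 647 CPM in KO-labelled myoblasts, at 1004, 964 and 959 CPM against 988 and 994 CPM in differentiated myotubes, and at 831, 882, 909 and 907 CPM against 1102, 1098, 1105 and 1040.4 CPM in fused myotubes. Only the fused groups were apart, with KO-labelled libraries higher by 0.30 ± 0.035 (SE, log2, edgeR adjusted p 9.04e-07). Myl12a cannot be read alone, since 53.2% of its 31-base words also occur in Myl12b, which was higher by 0.49 (edgeR adjusted p 0.00195) at the same stage and lower in myoblasts and differentiated myotubes (-0.62 and -0.52).

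Transgelins, calponins and caldesmon bind along filaments. Transgelin 2 (Tagln2, chr1:172500047-172507380, plus strand) had the steepest fall of all members. It lay at 686, 686 and 699 CPM in WT and 858, 827 and 773 CPM in KO-labelled myoblasts, then at 19.5, 15.4 and 17.4 CPM against 3.96 and 5.40 CPM in differentiated myotubes. Fused WT libraries held 1.96, 1.71, 1.79 and 2.35 CPM, against 2.57, 2.17, 2.51 and 1.93 CPM with the KO label. KO-labelled libraries were all higher in myoblasts and all lower in differentiated myotubes, and the fused groups overlapped. Its log2 difference was 0.25 ± 0.048 (SE, edgeR adjusted p 0.000821) in myoblasts and -1.89 ± 0.12 (SE, edgeR adjusted p 9.41e-12) in differentiated myotubes. The myoblast difference was 0.24 with the effective-length offset (edgeR adjusted p 0.0634). From WT myoblasts to WT fused myotubes Tagln2 fell by 8.43 on the log2 scale.

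Transgelin (Tagln) held its level longer than Tagln2. It lay at 129.9, 129 and 136 CPM in WT and 140.2, 123 and 135 CPM in KO-labelled myoblasts, at 169, 145 and 162 CPM against 80.2 and 81.2 CPM in differentiated myotubes, and at 2.42, 2.22, 2.47 and 1.81 CPM against 1.25, 1.45, 1.41 and 0.932 CPM in fused myotubes. From myoblasts to differentiated myotubes Tagln rose by 0.27 in WT and fell by 0.72 in KO-labelled cells on the log2 scale (edgeR adjusted p 2.44e-05 and 1.89e-11). The difference of these changes was -0.99 ± 0.079 (SE, edgeR adjusted p 9.15e-10). With scaling by library size only, the rise in WT was 0.02 (edgeR adjusted p 0.77). The labels were apart in differentiated and fused myotubes (log2 fold change -0.98 and -0.78, edgeR adjusted p 5.02e-12 and 0.0111). With the effective-length offset the fused difference was -0.62 (edgeR adjusted p 0.299).

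Calponin 2 (Cnn2) and caldesmon (Cald1) were lower in KO-labelled differentiated myotubes, by log2 fold changes of -0.49 and -0.66, and Cald1 also in fused ones (-0.17, edgeR adjusted p 0.0139). Without WT replicate 4 or KO-labelled replicate 2, the latter was -0.13 or -0.15 (edgeR adjusted p 0.0868 or 0.0679), and with the effective-length offset it was -0.15 (edgeR adjusted p 0.234). With the length and GC trend removed, Cnn2 was called higher in KO-labelled myoblasts (0.12, edgeR adjusted p 0.0285, against 0.09 and 0.203). Cnn3, a calponin also found in non-muscle cells, was called at no stage. It lay at 496, 491 and 485 CPM in WT and 477, 469 and 467 CPM in KO-labelled myoblasts, at 955, 923 and 956 CPM against 893 and 915 CPM in differentiated myotubes, and at 521, 530.2, 536 and 571 CPM against 531, 542, 548 and 523 CPM in fused myotubes. The groups were apart in myoblasts and differentiated myotubes, with KO-labelled libraries lower, and overlapped in fused ones. With scaling by library size only, Cnn3 was called lower in KO-labelled differentiated myotubes (-0.12, edgeR adjusted p 0.021). Its small rise from WT myoblasts to fused myotubes (0.14) turned into -0.18 with scaling by library size only.

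**Figure D3:**
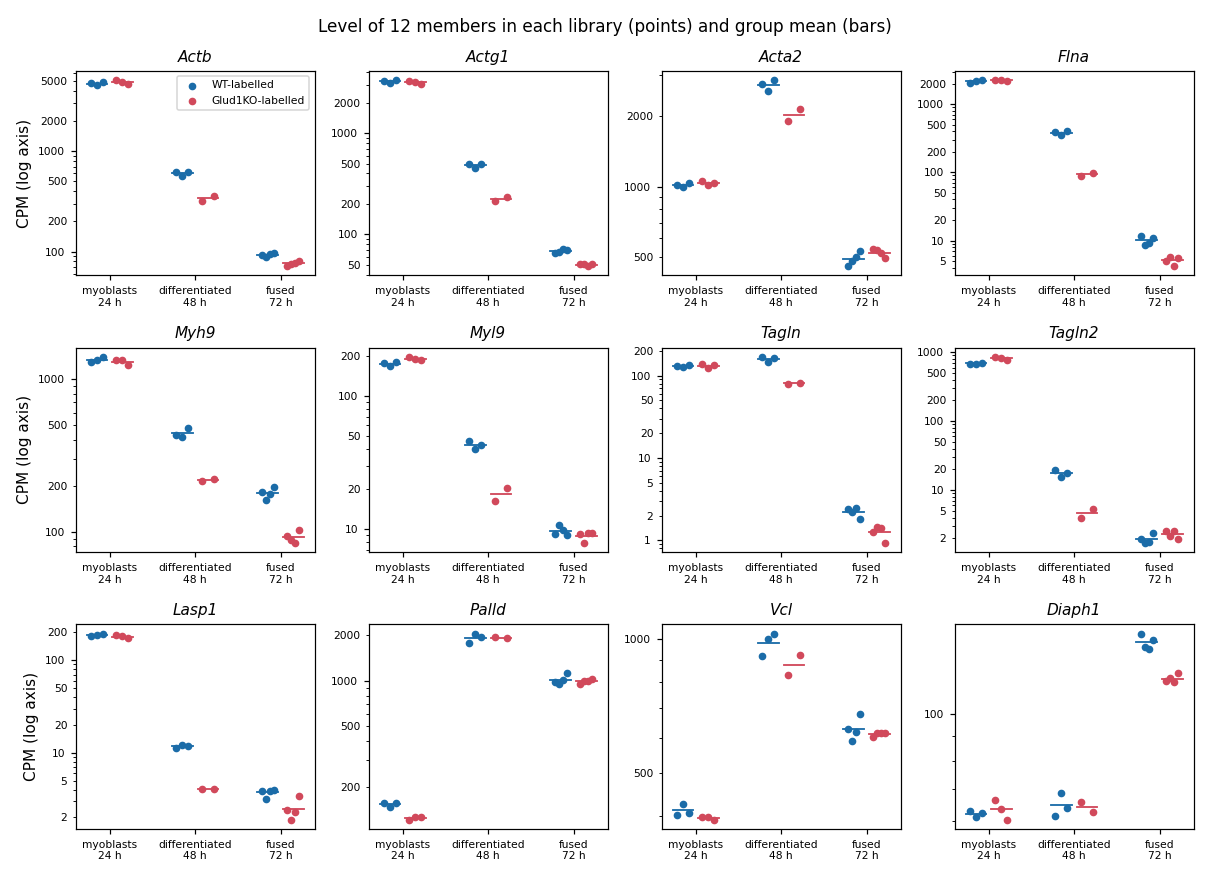
Level of 12 members in each library, in CPM on a log axis, by stage (24 h, 48 h and 72 h). Blue points are WT and red points KO-labelled libraries, and the bars are group means. Flna, Tagln2, Lasp1, Myl9, Actg1 and Actb are apart between the labels in differentiated myotubes, while Palld and Diaph1 overlap there.

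Cofilin (Cfl1) severs filaments, and profilin (Pfn1) and thymosin β4 (Tmsb4x) bind monomers. Cfl1 lay at 1506, 1497 and 1557 CPM in WT and 1649, 1628 and 1507 CPM in KO-labelled myoblasts, at 276, 247 and 264 CPM against 169 and 176 CPM in differentiated myotubes, and at 77.9, 82.3, 83.3 and 86.9 CPM against 73.3, 74.1, 70.0 and 72.4 CPM in fused myotubes. The groups were apart at both later stages, by log2 fold changes of -0.60 ± 0.053 (SE, edgeR adjusted p 2.62e-09) and -0.19 ± 0.046 (SE, edgeR adjusted p 0.00541).

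Tmsb4x did not follow Cfl1. It lay at 887, 864 and 869.7 CPM in WT and 1028, 1005 and 966 CPM in KO-labelled myoblasts, at 692, 682 and 601 CPM against 690.4 and 638 CPM in differentiated myotubes, and at 162, 164, 161 and 178 CPM against 204, 197, 202 and 194 CPM in fused myotubes. KO-labelled libraries were all higher in myoblasts and in fused myotubes (log2 fold change 0.19 and 0.26, edgeR adjusted p 0.0072 and 0.000172), with overlap in between. Pfn1 missed the threshold in differentiated myotubes (-0.14, edgeR adjusted p 0.0541), and was called lower, as Cfl1 was, without WT replicate 2 (-0.17, edgeR adjusted p 0.0342) and under 3 other settings. These were removal of the length and GC trend (-0.18, edgeR adjusted p 0.00248), library size only (-0.20, edgeR adjusted p 0.00392) and no filter on low counts (-0.15, edgeR adjusted p 0.0385).

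Diaph1 is a formin, which nucleates and elongates unbranched filaments. It lay at 62.9, 61.2 and 62.4 CPM in WT and 66.4, 63.6 and 60.4 CPM in KO-labelled myoblasts, at 61.5, 68.8 and 64.0 CPM against 65.8 and 62.6 CPM in differentiated myotubes, and at 147, 138, 136 and 143 CPM against 117, 119, 117 and 121 CPM in fused myotubes. It thus rose in the second step, and less far in KO-labelled cells, where each library was below each WT one. In log2 terms the labels differed by -0.25 ± 0.037 (SE, edgeR adjusted p 2.32e-05) in fused myotubes. The change of this difference from differentiated myotubes was -0.24 and was called. It was not called with library size only, with the effective-length offset or without KO-labelled differentiated replicate 1. The values were -0.19, -0.25 and -0.21 (edgeR adjusted p 0.0606, 0.0532 and 0.0904).

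The 8 focal adhesion genes went in both directions. In WT differentiated myotubes 5 of them (Vcl, Tln1, Vasp, Pxn and Pdlim7) were higher than in myoblasts, and Zyx, Lasp1 and Ptk2 were lower. Over all genes tested 42.4% were higher and 42.6% lower in this step, so such a mix is not particular to these genes. The direction of Tln1 (0.19) depended on the setting: it was -0.15 with the length and GC trend removed (edgeR adjusted p 0.000304), -0.065 with library size only and 0.04 with the effective-length offset (edgeR adjusted p 0.203 and 0.611). Lasp1, an adaptor at the leading edge and in adhesions (chr11:97799000-97838764, plus strand), lay at 182, 186 and 193 CPM in WT and 185, 182 and 174 CPM in KO-labelled myoblasts, at 11.2, 12.1 and 11.8 CPM against 4.06 and 4.09 CPM in differentiated myotubes, and at 3.88, 3.17, 3.89 and 4.00 CPM against 2.38, 1.89, 2.30 and 3.40 CPM in fused myotubes. The groups were apart in differentiated myotubes, at 0.348 of the WT level, and overlapped in myoblasts and in fused ones. Lasp1 differed by -1.52 ± 0.12 on the log2 scale (SE, edgeR adjusted p 1.81e-10) in differentiated and -0.62 ± 0.13 (SE, edgeR adjusted p 0.00183) in fused myotubes. The latter was -0.78 with the effective-length offset (edgeR adjusted p 0.226).

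Vinculin (Vcl), which ties talin to actin and also sits at the costameres of muscle, rose instead. It lay at 402, 427 and 408 CPM in WT and 399, 399 and 393 CPM in KO-labelled myoblasts, at 915, 1003 and 1028 CPM against 829.6 and 921 CPM in differentiated myotubes, and at 627, 589, 619 and 678 CPM against 602, 616, 614 and 617 CPM in fused myotubes. Every KO-labelled library was below every WT one in myoblasts, where the difference was not called (log2 fold change -0.05, edgeR adjusted p 0.546). The differentiated groups overlapped, and their log2 fold change of -0.17 (edgeR adjusted p 0.0247) did not pass the test without WT replicate 2 or 3 or KO-labelled replicate 1, at -0.15, -0.13 and -0.091 (edgeR adjusted p 0.0711, 0.109 and 0.386). Nor did it pass with only the groups compared (-0.17), the length and GC trend removed (-0.048) or the effective-length offset (-0.082), where the edgeR adjusted p was 0.0891, 0.465 and 0.469. Zyxin (Zyx), an adaptor recruited to tensed filaments, and talin 1 (Tln1), the integrin activator, were lower in KO-labelled differentiated myotubes (log2 fold change -0.78 and -0.32), as was Vasp, which elongates filaments (-0.21). With the effective-length offset Tln1 was at -0.18 there and lost its call (edgeR adjusted p 0.14), and with the length and GC trend removed it was at -0.19 and kept it. In fused myotubes Zyx (-0.18, edgeR adjusted p 0.0468) and Tln1 (-0.16, edgeR adjusted p 0.0145) were called as well. Zyx lost that call without any single library except WT replicate 2 (edgeR adjusted p 0.0517 to 0.143), and Tln1 lost it without WT replicate 4 or KO-labelled replicate 3 (edgeR adjusted p 0.0522 and 0.0673). Zyx was also not called with DESeq2 size factors or the replicate block (-0.18 in both, edgeR adjusted p 0.0512 and 0.0712). Neither was called with the effective-length offset, at -0.037 for Zyx and -0.099 for Tln1 (edgeR adjusted p 0.885 and 0.418). Paxillin (Pxn), the focal adhesion kinase gene Ptk2 and Pdlim7 were called at no stage, with log2 fold changes between -0.06 and 0.04. With the length and GC trend removed, Ptk2 was called higher in KO-labelled differentiated myotubes (0.15, edgeR adjusted p 0.0117).

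Moesin (Msn) and ezrin (Ezr) link filaments to the membrane, and Iqgap1 is a scaffold for Rac1 and Cdc42. All 3 were lower in KO-labelled differentiated myotubes, by log2 fold changes of -0.45, -0.52 and -0.69. Iqgap1 lay at 335, 337 and 332 CPM in WT and 326, 333 and 308 CPM in KO-labelled myoblasts, at 79.7, 74.9 and 79.4 CPM against 49.3 and 47.6 CPM in differentiated myotubes, and at 40.2, 31.8, 33.3 and 32.1 CPM against 27.7, 28.5, 29.5 and 33.0 CPM in fused myotubes. The differentiated groups were apart, and the myoblast and the fused groups overlapped. The fused difference of -0.22 (edgeR adjusted p 0.0214) was -0.13 without WT replicate 1, the highest WT library, and did not pass the test (edgeR adjusted p 0.152). Nor did it pass without KO-labelled replicate 1, 2 or 3, at -0.19, -0.20 and -0.22 (edgeR adjusted p 0.0789, 0.0723 and 0.0572), with the length and GC trend removed (-0.17, edgeR adjusted p 0.0539) or with the effective-length offset (-0.17, edgeR adjusted p 0.464). Ezr was the one member besides Diaph1 that rose from differentiated to fused myotubes in WT (0.56).

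Vimentin (Vim), the intermediate filament of mesenchymal cells and myoblasts, changed sides. It lay at 5345, 4957 and 5318 CPM in WT and 5434, 5531 and 5134 CPM in KO-labelled myoblasts, at 2529.9, 2269 and 2486 CPM against 1681 and 1914 CPM in differentiated myotubes, and at 939.6, 998, 1064 and 1113 CPM against 1308, 1327, 1269 and 1214 CPM in fused myotubes. KO-labelled libraries were all lower in differentiated and all higher in fused myotubes. Their log2 differences were -0.43 ± 0.067 and 0.31 ± 0.052 (SE, edgeR adjusted p 2.03e-05 and 0.000121), and their difference was 0.75 ± 0.085 (SE, edgeR adjusted p 7.1e-07). Vim was the sole member called in opposite directions at these stages.

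Srf, the transcription factor of many of these genes, was called between the labels at no stage. It lay at 80.5, 79.3 and 83.3 CPM in WT and 88.7, 83.7 and 78.0 CPM in KO-labelled myoblasts, at 59.5, 60.3 and 59.5 CPM against 58.2 and 58.5 CPM in differentiated myotubes, and at 45.3, 47.9, 50.1 and 46.4 CPM against 48.1, 47.8, 47.8 and 48.2 CPM in fused myotubes. The differentiated groups did not overlap but lay close together. Log2 differences were 0.04 ± 0.041, -0.03 ± 0.051 and 0.02 ± 0.043 (SE, edgeR adjusted p 0.571, 0.683 and 0.844).

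The change of the difference between the labels was tested directly. From myoblasts to differentiated myotubes it moved down in 21 of 33 tested members and up in 1, Palld, where it moved in 19.1% of all genes tested (7.78% up and 11.3% down). From differentiated to fused myotubes it moved up in 20 and down in 1, Diaph1 (14.8% of all genes, 8.27% up and 6.53% down), and from myoblasts to fused myotubes it moved down in 10 and up in 3 (10.3% of all genes, 5.75% up and 4.55% down). These tests share libraries. In the first, Tagln2 (-2.14 ± 0.13, SE, edgeR adjusted p 5.01e-12), Flna (-2.06 ± 0.088, SE, edgeR adjusted p 1.24e-14) and Lasp1 (-1.47 ± 0.13, SE, edgeR adjusted p 2.26e-09) had the largest values. In the second, Tagln2 moved back by 2.11 ± 0.22 (SE, edgeR adjusted p 2.14e-07) and Myl9 by 1.12, and in the third Flna and Myh9 had the largest values (-1.04 and -0.92). With the effective-length offset the first count was 17, all down, and the calls of Palld, Myh10, Tln1, Ezr and Iqgap1 were lost, at 0.24, -0.24, -0.12, -0.30 and -0.53 (edgeR adjusted p 0.0995, 0.172, 0.549, 0.319 and 0.0556). Without the offset these were 0.29, -0.29, -0.28, -0.44 and -0.63. The second was 15, all up, without Myh10, Diaph1, Vasp, Lasp1, Ezr and Iqgap1, at 0.30, -0.25, 0.15, 0.89, 0.40 and 0.46 (edgeR adjusted p 0.0984, 0.0532, 0.21, 0.327, 0.186 and 0.131). Without the offset these were 0.30, -0.24, 0.19, 0.90, 0.43 and 0.47. The third was 7, with 6 down, without Flna, Palld, Tagln, Cald1, Lasp1 and Vim. These were at -0.53, 0.25, -0.58, -0.13, -0.70 and 0.22 with the offset (edgeR adjusted p 0.307, 0.0916, 0.407, 0.542, 0.384 and 0.156).

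Other genes of the pathway at the differentiated stage were counted by lists, beside 14.1% of all genes lower and 11% higher. Of 15 further MRTF-SRF targets tested, 9 were lower and none higher in KO-labelled cells (median log2 fold change -0.24), with the largest fall in Ccn2, a matricellular protein (-1.47 ± 0.17, SE, edgeR adjusted p 3.62e-07). Of 5 SRF cofactors tested, Elk3 and Mrtfb were lower (-0.96 and -0.30) and Elk1 was higher (0.15), and of 8 immediate early SRF targets Junb was lower and Mcl1 higher (-0.23 and 0.24). The Arp2/3 complex nucleates branched filaments, and of 17 genes for it and its activators 9 were lower and 1 higher, led by Arpc5 (-0.39) and Brk1 (0.23). Of 12 other formins 4 were lower and 4 higher (Fmnl3 at -0.66 and Daam2 at 0.47). Of 18 turnover and capping genes 8 were lower and 5 higher (Capg at -0.96 and Tmsb10 at 0.40). Of 25 other focal adhesion genes 7 were lower and 5 higher (Tes at -1.59 and Nedd9 at 0.47).

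The striated counterparts of the members, 15 sarcomeric or muscle-enriched genes such as Acta1, Actn2 and Flnc, went the other way. In WT fused myotubes against myoblasts 14 were higher and 1 was lower (median log2 fold change 5.16). Over all genes tested 42.2% were higher and 43.4% lower there. The largest rise was in Myh8, a perinatal myosin heavy chain (8.53), and Pfn2 was lower (-0.85). In KO-labelled differentiated myotubes 8 were higher than in WT and 2 lower (median 0.17), led by Myl1 (0.47 ± 0.063, SE, edgeR adjusted p 2.53e-06) and Pfn2 (-0.50). Of all genes tested 11% were higher and 14.1% lower at that stage. In KO-labelled myoblasts 12 of the 15 were lower and none higher (median -0.35), with the largest fall in Myh3, the embryonic myosin heavy chain (-0.92), where 6.69% of all genes were lower and 4.86% higher. In the same myoblasts Ckm, Myog, Mymk and Des of the 7 myogenic markers were lower (-0.81, -0.63, -0.45 and -0.33). Pax7, Myf5 and Myod1 were not called (0.01, 0.01 and -0.04). Of the dividing-cell markers Ccnb1, Cdk1 and Ccna2 were higher (0.20, 0.21 and 0.22), and Mki67, Top2a and Mcm2 were not called. The dividing-cell markers summed to 1233 to 1281 CPM in WT and 1372 to 1418 CPM in KO-labelled myoblasts, and their part in the lower counts was not tested. In fused myotubes, where 6.32% of all genes were higher and 6.72% lower, 1 counterpart was higher, Mylpf (0.18, edgeR adjusted p 0.0367), and none was lower, while 5 of the 15 further MRTF-SRF targets were higher, led by Ccn2 (0.51, edgeR adjusted p 0.0148), and none lower. The median of those 15 was -0.04.

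Markers of other cells differed between the labels in differentiated myotubes. The 6 markers of dividing cells summed to 33.8 to 42.1 CPM in WT and 25.4 to 27.3 CPM in KO-labelled differentiated myotubes, with 5 lower, led by Mki67 (-2.55), and Mcm2 higher (0.28). Mki67 was below 1 CPM in every KO-labelled library there. The 8 fibroblast markers summed to 24.3 to 27.1 CPM in WT and 8.13 to 12.1 CPM in KO-labelled libraries. Of the 4 tested 2 were lower, led by Ly6a (-3.98), and Dcn, Lum, Thy1 and Dpt were below 1 CPM in every library. Ly6a and Pdgfra were below 1 CPM in every differentiated library of either label. The value of Ly6a is thus a ratio near the floor. The 6 leukocyte markers summed to 15.5 to 18.5 CPM and 24.3 to 28.0 CPM, nearly all of it Itgam, with Ptprc, Csf1r and Adgre1 below 1 CPM in every library. The 10 smooth muscle and pericyte markers summed to 339.8 to 364 CPM and 367 to 393 CPM, with 3 higher, led by Myh11 (1.25), and 2 lower, led by Cspg4 (-1.26), a pericyte proteoglycan. Cspg4 was below 1 CPM in every KO-labelled differentiated library. Myh11, the smooth-muscle myosin, was at 0.479 to 0.598 CPM in WT libraries, against 1.02 and 1.62 CPM with the KO label. Of the 7 myogenic markers 3 were lower, led by Pax7 (-0.92), the marker of satellite cells, and Mymk, a fusion protein, was higher (0.27). The part of these cells in the members' lower level was not tested.

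Per length, the order of the members turned over. Vim (7746 ± 298 TPM, SD, n = 3), Actb (4893 ± 218), Tmsb4x (3462 ± 49.4) and Actg1 (2914 ± 66.8) led WT myoblasts, with no overlap between neighbours. In WT fused myotubes Myl12a (1547 ± 28.6 TPM, SD, n = 4), Vim (1270.0 ± 66.0), Pfn1 (659 ± 10.5) and Tmsb4x (538 ± 29.2) led, and Tmsb4x overlapped with Cnn3 (509 ± 19.4). Actb and Actg1 had moved from the second and the fourth place to places 13 and 16 by their means. These places are not resolved, since Actb overlapped with Tln1 above it, and Actg1 with Pxn above and Vasp below it. Cnn1 was last in both groups.

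Within 9 members the share of a gene's estimated counts held by 1 of its transcripts moved by at least 20 percentage points between groups. Shares were computed for the members only, so this count has no background over all genes. In Pdlim7 (chr13:55495795-55513676, minus strand), a PDZ and LIM domain adaptor, Pdlim7-201 with 13 exons held 69.7%, 66.5% and 67.6% in WT myoblasts, 5.97%, 5.20% and 6.38% in differentiated and 0.578%, 0.936%, 0% and 0% in fused myotubes. KO-labelled libraries were at 69.0%, 65.5% and 67.4%, then at 2.17% and 0.890%, and in fused myotubes at 0% in 3 libraries and 0.273% in the fourth. The groups overlapped in myoblasts and fused myotubes, and the KO-labelled libraries were lower in differentiated ones. The transcripts with 8 exons, Pdlim7-202 and Pdlim7-203, held most of the counts instead, at 48.9% ± 3.72 and 38.3% ± 3.33 in WT fused myotubes (SD, n = 4), while the gene's total was called between the labels at no stage.

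In Palld the transcript with 22 exons, Palld-204, held 17.1% ± 2.22 (SD, n = 3) in WT myoblasts, 44.5% ± 1.83 (SD, n = 3) in differentiated and 69.3% ± 3.17 (SD, n = 4) in fused myotubes. Palld-203, with 20 exons, held 58.9% ± 1.61 in WT myoblasts and 16.8% ± 1.63 in fused myotubes. In KO-labelled myoblasts Palld-204 was at 8.66%, 8.92% and 10.4%, below the WT values of 14.7%, 17.6% and 19.1%. In Pxn, Pxn-201 held 80.8% ± 0.656 in WT myoblasts and 56.9% ± 0.750 in fused myotubes, and Pxn-214 held 3.21% ± 0.294 and 37.4% ± 1.62. The KO-labelled means were 83.4% and 57.4%, and 2.81% and 37.8%. Transcripts of Ptk2, Zyx, Cald1 and Myl12a also moved, in the last with the reservation on Myl12b. In Flna and Cnn1 the shares scattered too widely at low levels to be read: Flna-201 held 44.6% ± 34.5 in WT fused myotubes. The shares were not tested.

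**Figure D4:**
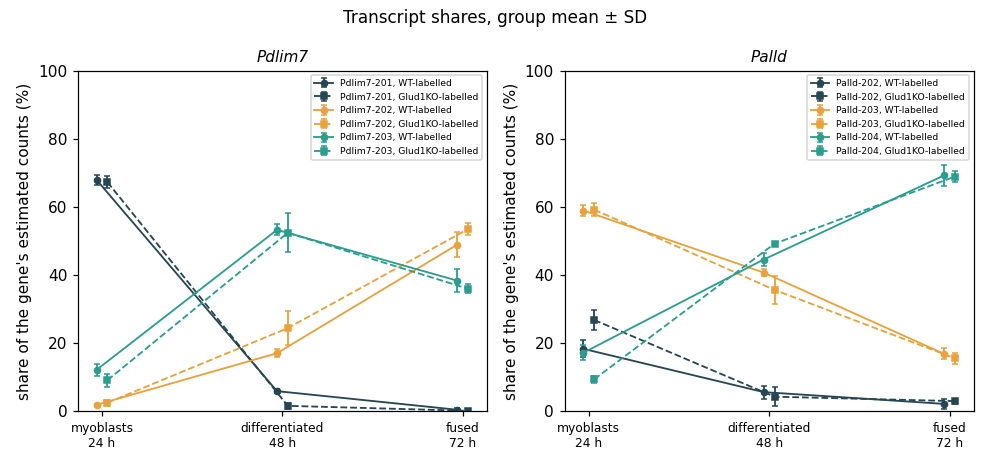
Share of a gene's estimated counts held by the transcripts that moved most in Pdlim7 (left) and Palld (right), by stage, as the mean ± SD of each group. Solid lines are WT and dashed lines KO-labelled libraries. Pdlim7-201 held 67.9% in WT myoblasts and 5.85% in differentiated myotubes, and Palld-204 held 69.3% in fused ones.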

How the data were processed

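Per the labels, 19 mRNA libraries were prepared with a TruSeq kit. Per the submitters' processing notes, the tools were bcl2fastq 2.20, fastp 0.20.0, kallisto 0.46.1 and edgeR 3.36 with the build GRCm38.p6. Per the file headers, the deposited values are estimated counts and TPM for each of 121843 transcripts, with lengths and effective lengths.

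Estimated counts were summed by gene identifier (GENCODE M21), which matched 121018 transcripts, and listed symbols were then matched to identifiers. The other 825 held 0.255 to 0.507% of the counts and were left out. Sums were rounded and fitted with edgeR 4.0.16 (R 4.3.3) in 1 quasi-likelihood model of 6 groups, with edgeR's default filter on low counts and TMM scaling. CPM are counts scaled to a common total after TMM. The deposited TPM, which the authors give per length, were used for the order of genes. The common biological coefficient of variation was 4.03%. Libraries of a group differed by more than sampling noise (chi-square per degree of freedom 2.14 to 7.66), so each counted as 1 replicate. The fit was tested on simulated data.

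The members and lists were chosen with earlier results of these data known. Every library is printed for the 5 called members with the largest difference between the labels at a stage, for the member that rose and the one that fell most from WT myoblasts to fused myotubes in each role, for Srf and for the actins. In other lists the called gene with the largest change in each direction is named. Some of the lists are not reported here. Alternatives were DESeq2 size factors and the DESeq2 1.42.0 test, library size only, no filter or a mean CPM of at least 1, only the groups compared, a replicate block, an effective-length offset, leaving out each library and, added after seeing the data, removal of length and GC trends.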

Additional observations from a re-analysis of the deposited data

Results flagged for a closer look

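One library stood far from the others of its group in 5 of the 68 sets of a member and a group of 4 libraries. Chance does this in about 1 in 20 groups. Tmsb4x was at 177.6 CPM in WT fused replicate 4, against 161.1 to 163.6 CPM in the others. Lasp1 was at 3.172 CPM in WT fused replicate 2, against 3.881 to 3.998 CPM. Pdlim7 was at 91.33 CPM in WT fused replicate 3, against 80.95 to 81.35 CPM. In KO-labelled fused myotubes, Myl9 was at 7.896 CPM in replicate 2, against 9.159 to 9.411 CPM, and Myl12a at 1040 CPM in replicate 4, against 1098 to 1105 CPM.

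The difference between KO-labelled and WT libraries changed between stages in 56 tests on members (edgeR's quasi-likelihood test, adjusted over all genes tested). Values are changes of the log2 fold change, and the 3 pairs of stages share libraries. From myoblasts to differentiated myotubes the difference moved down in Actb (-0.90), Actg1 (-1.08), Acta2 (-0.46), Flna (-2.06), Actn1 (-0.79), Myh9 (-0.97), Myh10 (-0.29), Myl9 (-1.34), Tagln (-0.99), Tagln2 (-2.14), Cnn2 (-0.58), Cald1 (-0.70), Cfl1 (-0.67), Tln1 (-0.28), Zyx (-0.73), Vasp (-0.25), Lasp1 (-1.47), Msn (-0.43), Ezr (-0.44), Iqgap1 (-0.63) and Vim (-0.48). It moved up in Palld (0.29). From differentiated to fused myotubes it moved up in Actb (0.55), Actg1 (0.66), Acta2 (0.51), Flna (1.02), Actn1 (0.47), Myh10 (0.30), Myl9 (1.12), Myl12a (0.28), Tagln2 (2.11), Cnn2 (0.59), Cald1 (0.49), Cfl1 (0.41), Tmsb4x (0.25), Zyx (0.60), Vasp (0.19), Lasp1 (0.90), Msn (0.43), Ezr (0.43), Iqgap1 (0.47) and Vim (0.75). It moved down in Diaph1 (-0.24). From myoblasts to fused myotubes it moved down in Actb (-0.34), Actg1 (-0.41), Flna (-1.04), Actn1 (-0.33), Myh9 (-0.92), Tagln (-0.79), Cald1 (-0.21), Cfl1 (-0.26), Diaph1 (-0.28) and Lasp1 (-0.57), and up in Palld (0.26), Myl12a (0.32) and Vim (0.27). Some of these did not pass the test without 1 library. In the first set these were Myh10 and Tln1 without KO-labelled differentiated replicate 1 (edgeR adjusted p 0.14 and 0.064). In the second set, without that library, they were Myh10 (edgeR adjusted p 0.174), Diaph1 (0.0904) and Vasp (0.153). Myh10 also lost its call without WT differentiated replicate 3 (0.0641), and Tmsb4x without WT differentiated replicate 1 (0.0551) or KO-labelled differentiated replicate 2 (0.134). Vasp lost its call without WT differentiated replicate 1 (0.0783), WT fused replicate 2 (0.0655) or KO-labelled fused replicate 1 or 2 (0.0615 and 0.0689). In the third set Palld lost its call without WT myoblast replicate 1 or 3, WT fused replicate 2 or KO-labelled myoblast replicate 1 (0.0508 to 0.0713). Cald1 lost it without WT myoblast replicate 3, WT fused replicate 1 or 4, KO-labelled myoblast replicate 3 or KO-labelled fused replicate 2 (0.0532 to 0.0766). Vim lost it without WT myoblast replicate 1 or 3, WT fused replicate 1, KO-labelled myoblast replicate 3 or KO-labelled fused replicate 1 or 2 (0.0510 to 0.0815).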

How the results depend on the processing

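The count of called members stayed within 1.5 times of the reported one in all settings run but 3. In KO-labelled against WT myoblasts it was 5 instead of 3 with the length and GC trend removed, a setting chosen after seeing the data. With the effective-length offset it was 9 instead of 16 in fused myotubes, and 7 instead of 13 for the change of that difference from myoblasts to fused myotubes. The cause was not tested. Over all genes the offset gave 586, 2143 and 821 calls between the labels at the 3 stages instead of 1747, 3810 and 1972, and 1457, 978 and 665 instead of 2890, 2238 and 1557 for the changes of the difference. With only the groups compared, 2625 genes were called in myoblasts. Leaving out 1 library at a time gave 3 called members in myoblasts, 21 to 22 in differentiated and 13 to 16 in fused myotubes. It gave 32, 32 and 31 to 32 for the WT comparisons between stages, 31, 30 to 32 and 32 for the KO-labelled ones, and 21 to 23, 18 to 21 and 10 to 13 for the changes of the difference.

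Small changes between stages turned with the scaling. With library size only, which moved the median of all genes by -0.25 to -0.32 in the comparisons with myoblasts, the log2 fold change was -0.065 for Tln1 (WT), -0.19 for Diaph1 (WT) and -0.29 for Diaph1 (KO-labelled) from myoblasts to differentiated myotubes, and -0.11 for Vasp (KO-labelled). From myoblasts to fused myotubes it was -0.18 and -0.13 for Cnn3 and -0.23 and -0.29 for Pxn in WT and KO-labelled cells. With the effective-length offset it was -0.31 for Pxn in WT, and 0.40 and 0.38 for Pdlim7 in WT and KO-labelled cells. With the length and GC trend removed it was -0.15 for Tln1 (WT, first step), -0.13 for Pfn1 (WT, second step) and -0.11 for Pxn (KO-labelled, myoblasts to fused). The cause was not tested.

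Libraries with the same number did not vary together (r from -0.05 to 0.04 over 25 pairs, 9 of 25 best with their own number). With the replicate block, 22 members were called in differentiated and 15 in fused myotubes. Zyx lost its call in fused myotubes (-0.18, edgeR adjusted p 0.0712), and for Tmsb4x the change of the difference from myoblasts to differentiated myotubes was called (-0.20, edgeR adjusted p 0.0436). The KO-labelled differentiated group held 2 libraries, which limits the precision there.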
